A study of Homo sapiens with 9 samples.

Results

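The genes described here are the long noncoding RNAs (lncRNAs) that were expressed in GLO1-depleted and control MDA-MB-231 cells. They were chosen by symbol and level. A gene was a candidate if its symbol starts with LINC or ends with -AS and a digit, or if it was UCA1, CCAT1, MALAT1, NEAT1, H19, MEG3, HOTAIR, GAS5 or SNHG1. Candidates with a mean of at least 1 CPM (the counts-per-million value, a count over the sum of gene counts of its library) in at least 1 condition were kept. This gave 360 members out of 26364 genes in the count tables, from 1872 candidates, of which 745 had no count in any library. The members comprised 131 LINC symbols, 223 antisense symbols and 6 of the RNAs named in the rule. H19, MEG3 and HOTAIR did not reach the limit, with highest condition means of 0.196, 0.0612 and 0.118 CPM. Just inside it lay PLS3-AS1 (1.00 CPM in its highest condition), LINC01134 (1.01) and RASAL2-AS1 (1.03), and just outside it CEP83-AS1 (0.998), RALY-AS1 (0.996) and SGMS1-AS1 (0.989).

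RNA was sequenced from 9 libraries of MDA-MB-231, a human triple-negative breast cancer line with mesenchymal features. The cells carried a stable shRNA against GLO1, in a first clone (shGLO1#1) and a second clone (shGLO1#2), or a non-targeting shRNA (shNT, 1 control clone). Each condition had 3 replicates. GLO1 encodes glyoxalase 1, the enzyme that detoxifies the glycolysis by-product methylglyoxal. Each condition is 1 stable clone, so the tests below measure the spread between libraries of a clone and not between independently made lines.

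A lncRNA is a transcript without a long translated reading frame. Some act in the nucleus, such as NEAT1, the scaffold of paraspeckles, and MALAT1, which associates with nuclear speckles. Others act in the cytoplasm or chiefly as precursors: GAS5 and SNHG1 carry small nucleolar RNAs (snoRNAs) in their introns. Antisense and divergent lncRNAs start beside or within a protein-coding gene on the other strand. lncRNAs are usually expressed at lower levels and in a more cell-type-restricted manner than mRNAs.

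The libraries held 15314238 to 18495576 gene counts, so that 1 count was worth 0.0541 to 0.0653 CPM. GLO1 averaged 67.2 ± 0.376 CPM in shGLO1#1 and 14.6 ± 0.823 CPM in shGLO1#2, against 310 ± 3.36 CPM in shNT (SD, n = 3 each). VIM, CD44 and EGFR were expressed in every library (at least 2953, 323 and 209 CPM), ESR1 and PGR did not exceed 0.450 and 0.257 CPM, and EPCAM and ERBB2 lay at 9.51 to 15.2 and 64.7 to 83.8 CPM. Of the markers of other cells, CD3E, CDH5 and DCN did not exceed 0.131 CPM. PTPRC averaged 1.24 CPM in shGLO1#1 and 2.55 CPM in shGLO1#2 against 8.18 CPM in shNT, PECAM1 2.79 and 3.19 against 0.837 CPM, and PDGFRB 1.24 and 5.18 against 2.36 CPM. The part of these markers in the results below was not tested.

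RefSeq annotates 338 of the 360 members as lncRNA, 3 as antisense RNA, 4 as transcribed pseudogenes and 15 as protein-coding. A total of 278 matched by symbol and 82 by an older symbol, and 36 have since been renamed as divergent transcripts. The TruSeq RNA kit used does not mark the strand, so reads of an antisense member and of an overlapping sense gene could not be told apart. CPM values are not corrected for transcript length, so they compare a gene between libraries and not genes with each other.

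Most members had few counts. The median member had 3.05 CPM over the 9 libraries, against 28.1 CPM for the median of all 13704 genes tested. Averaged over the 9 libraries, 10 members had at least 100 CPM, 60 had 10 to 100, 258 had 1 to 10, and 32 had less than 1 CPM. The 10 members with the highest counts took 52.9% of all member counts. All 360 members passed edgeR's filter on low counts. The limit of 1 CPM was reached in all 3 conditions by 286 members, in 2 conditions by 35 and in 1 condition by 39.

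Together the members took 5214 to 5403 CPM in the shGLO1#1 libraries and 4877 to 5058 CPM in the shGLO1#2 libraries, against 4940 to 5162 CPM in the shNT libraries. On this scale, of library totals, the shGLO1#1 libraries lay above all others. Without the 4 members of highest counts the sums were 3296 to 3387 CPM in shGLO1#1 and 3196 to 3257 CPM in shGLO1#2, against 3164 to 3276 CPM in shNT. The order depended on the scale. With library sizes scaled by TMM, which sets a typical gene equal between libraries and was chosen here after seeing the data, the sums were 5081 to 5292 CPM in shGLO1#1 and 4890 to 5081 CPM in shGLO1#2, against 5060 to 5283 CPM in shNT, and shGLO1#1 and shNT overlapped. Without the 4 members they were 3212 to 3295 CPM in shGLO1#1 and 3205 to 3272 CPM in shGLO1#2, against 3252 to 3352 CPM in shNT, and all 3 ranges overlapped. The share of alignments that fell on no gene was also higher in shGLO1#1, 14.5 to 15.2%, than in shGLO1#2 (13.0 to 13.3%) and shNT (12.8 to 13.3%). The part of this share in the sums was not tested.

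Among the members with the highest counts, NEAT1 rose in shGLO1#1. It was listed at 572, 475 and 555 CPM in shGLO1#1 and at 454, 410 and 415 CPM in shGLO1#2, against 319, 382 and 387 CPM in shNT. Neither clone overlapped shNT. On the log2 scale, the change of NEAT1 was 0.49 in shGLO1#1 (standard error 0.08, adjusted p = 0.000255) and 0.21 in shGLO1#2 (standard error 0.08, adjusted p = 0.0521). MALAT1, the neighbour of NEAT1 on chromosome 11, had 182, 160 and 183 CPM in shGLO1#1 and 213, 174 and 185 CPM in shGLO1#2, against 181, 183 and 208 CPM in shNT, and the groups overlapped. The log2 changes of MALAT1 were -0.20 (adjusted p = 0.0623) and -0.02 (adjusted p = 0.863). The kit selects polyadenylated RNA, and the mature 3′ end of MALAT1 is not polyadenylated.

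LINC00704, also known as MANCR, was higher in both clones. It had 135, 131 and 123 CPM in shGLO1#1 and 109, 95.4 and 99.4 CPM in shGLO1#2, against 73.3, 72.6 and 77.0 CPM in shNT. The 3 groups did not overlap, and the log2 fold change was 0.73 in shGLO1#1 (standard error 0.06, adjusted p = 6.86e-07) and 0.43 in shGLO1#2 (standard error 0.06, adjusted p = 0.000101), below the fold limit of the calls described below. FGD5-AS1 had 184, 171 and 173 CPM in shGLO1#1 and 149, 162 and 160 CPM in shGLO1#2, against 131, 136 and 146 CPM in shNT, and rose by 0.28 (adjusted p = 0.00122) and 0.17 (adjusted p = 0.0341) on the log2 scale. LINC00657 (NORAD), a cytoplasmic RNA that binds Pumilio proteins, had log2 changes of 0.18 in shGLO1#1 (adjusted p = 0.0161) and 0.04 in shGLO1#2 (adjusted p = 0.608). WAC-AS1 fell in shGLO1#2 (283, 320 and 330 CPM), against 424, 437 and 469 CPM in shNT, a log2 fold change of -0.53 (standard error 0.07, adjusted p = 2.41e-05). In shGLO1#1 it had 405, 424 and 431 CPM and a log2 fold change of -0.15 (adjusted p = 0.0762). WAC itself, the gene on the other strand, had log2 fold changes of -0.08 in shGLO1#1 and 0.05 in shGLO1#2.

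**Figure D1:**
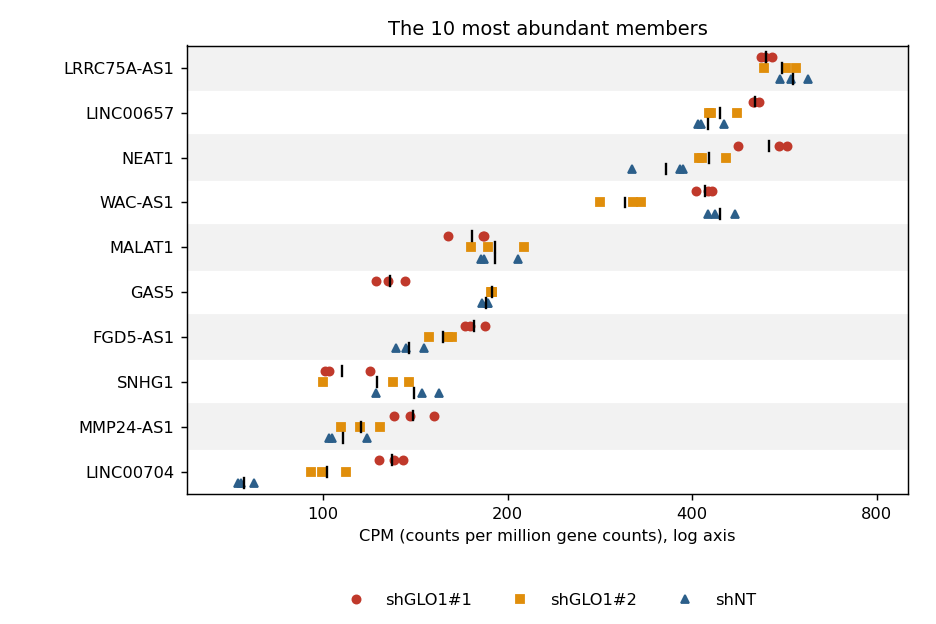
CPM of the 10 members with the highest counts in each library (log axis), with shGLO1#1 above shGLO1#2 above shNT for each gene. Points are libraries and bars are means of 3; both clones lie above their shNT libraries for NEAT1, FGD5-AS1 and LINC00704, shGLO1#1 lies below for LRRC75A-AS1, GAS5 and SNHG1 and above for LINC00657 and MMP24-AS1, and shGLO1#2 lies below for WAC-AS1 and just above for GAS5.

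Each clone was compared with shNT, and the clones with each other, to ask which members differ when GLO1 is depleted and whether the clones differ. A member was called at an adjusted p under 0.05 (over all genes tested) and an absolute log2 fold change over 1. In shGLO1#1 against shNT, 42 of 360 members were called (11.7%), 24 higher and 18 lower, beside 8.73% of all genes tested (5.98% higher and 2.75% lower). In shGLO1#2 against shNT, 36 members were called (10%), 19 higher and 17 lower, beside 7.68% of all genes (5.09% higher and 2.59% lower). Between the clones, 41 members were called (11.4%), 23 higher and 18 lower in shGLO1#2, beside 7.09% of all genes (3.33% higher and 3.75% lower). A member with a low mean had to be high in 1 condition to enter the set, which by itself adds calls. For the 328 members with a mean of at least 1 CPM over all 9 libraries, a choice that does not look at the conditions, the counts were 33 (10.1%), 28 (8.54%) and 36 (11.0%). Of the 70 with at least 10 CPM, 4.29%, 4.29% and 7.14% were called. Of the 258 under 10 CPM, 11.6%, 9.69% and 12.0% were called. The shares of all genes were not split by level. Among the members, p-values are given for these 328 only, and not for those of them that reached 1 CPM in 1 condition only. A change quoted as a bare number is a log2 fold change.

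Calls were counted by kind of symbol among the 328 members. In each of the 3 comparisons, 17 of 115 LINC genes (14.8%) were called. Of 207 antisense genes, 14 (6.76%) were called in shGLO1#1 against shNT, 11 (5.31%) in shGLO1#2 against shNT and 17 (8.21%) between the clones. With no fold limit, 32.8% of all members passed in shGLO1#1, 25% in shGLO1#2 and 38.6% between the clones, beside 45.7%, 38.1% and 46.5% of all genes. In shGLO1#1 these were 66 higher and 52 lower of 360 members, beside 22.6% and 23.1% of all genes. In shGLO1#2 they were 47 higher and 43 lower of 360, beside 18.3% and 19.8% of all genes. Between the clones 53 of 360 were higher and 86 lower in shGLO1#2, beside 22.8% and 23.7% of all genes.

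The sizes of the changes were compared with those of all genes as a description. The median absolute log2 fold change was 0.35 in shGLO1#1 and 0.30 in shGLO1#2, beside 0.24 and 0.21 for all genes tested. It was 0.39 between the clones, beside 0.25. The median log2 fold change was 0.16 in shGLO1#1 and 0.01 in shGLO1#2, beside 0.00 for all genes in both, and -0.12 between the clones, beside -0.01. In shGLO1#1, 63.1% of members had a fold change above 0, against 50.6% in shGLO1#2. The members' median CPM is lower than that of all genes. For the 70 members with at least 10 CPM the median absolute change was 0.23 in shGLO1#1, 0.19 in shGLO1#2 and 0.24 between the clones. For the 258 of 1 to 10 CPM it was 0.35, 0.30 and 0.41. The median change in shGLO1#1 was 0.02 for the 70 and 0.18 for the 258. All genes were not split in this way, so the part of level in the difference from all genes was not tested.

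**Figure D2:**
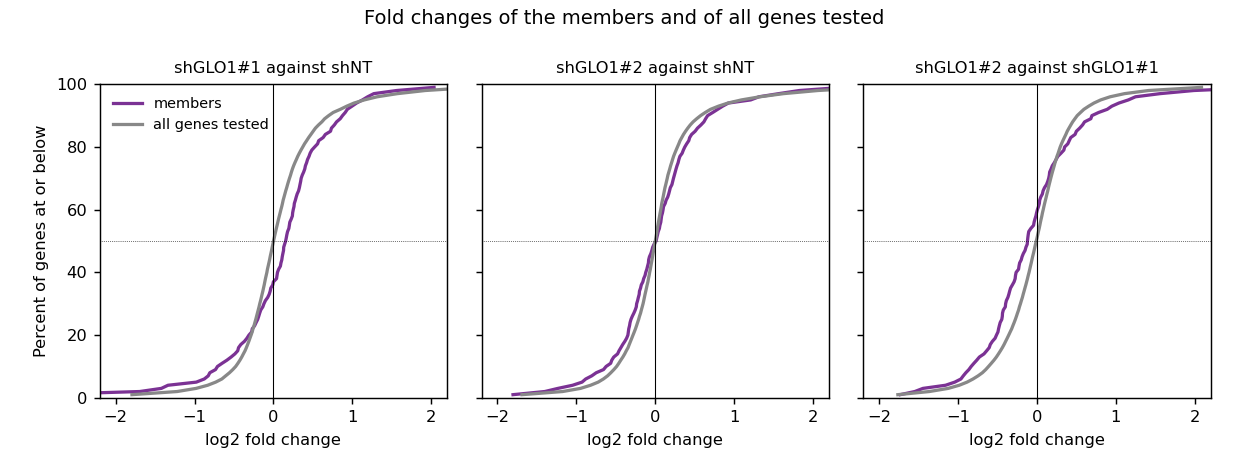
Cumulative percent of genes (y axis) at or below each log2 fold change (x axis) for the 360 members and for all 13704 genes tested, in each comparison. The member curve crosses 50% at 0.16 in shGLO1#1 against shNT, at 0.01 in shGLO1#2 against shNT and at -0.12 between the clones.

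Of the 328 members, 10 were called in the same direction against shNT in both clones (3.05%), beside 4.01% of all genes tested, and none in opposite directions. The 2 comparisons share the shNT libraries, so this count is no independent agreement. The 6 that rose were PRKCQ-AS1, APCDD1L-AS1, SLCO4A1-AS1, RHOXF1-AS1, LINC01085 and LINC00346, and the 4 that fell were LINC01088, SYNPR-AS1, LINC01057 and LINC00312. The 300 bases around the annotated start of 5 of these genes are shown here as the sequence from which each transcript would begin. They run from 250 bases before to 50 after the start and come from RefSeq (build GRCh38.p14), which is not the build of the count tables. Matches to the motifs searched are in capitals.
SLCO4A1-AS1 (chr20:62666572-62666871, minus strand): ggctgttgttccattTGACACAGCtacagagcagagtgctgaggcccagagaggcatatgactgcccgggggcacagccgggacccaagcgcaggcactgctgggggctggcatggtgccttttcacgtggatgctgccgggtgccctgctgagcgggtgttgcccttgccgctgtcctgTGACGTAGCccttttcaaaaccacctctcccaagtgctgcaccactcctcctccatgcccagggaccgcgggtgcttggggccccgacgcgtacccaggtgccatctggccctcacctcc
LINC00346 (chr13:110870259-110870558, minus strand): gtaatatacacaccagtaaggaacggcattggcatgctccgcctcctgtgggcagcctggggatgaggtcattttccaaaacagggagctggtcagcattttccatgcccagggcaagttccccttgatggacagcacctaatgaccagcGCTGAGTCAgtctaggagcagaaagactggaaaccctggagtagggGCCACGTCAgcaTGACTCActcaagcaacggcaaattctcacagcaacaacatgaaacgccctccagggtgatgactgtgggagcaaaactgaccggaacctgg
LINC01085 (chr4:14111718-14112017, plus strand): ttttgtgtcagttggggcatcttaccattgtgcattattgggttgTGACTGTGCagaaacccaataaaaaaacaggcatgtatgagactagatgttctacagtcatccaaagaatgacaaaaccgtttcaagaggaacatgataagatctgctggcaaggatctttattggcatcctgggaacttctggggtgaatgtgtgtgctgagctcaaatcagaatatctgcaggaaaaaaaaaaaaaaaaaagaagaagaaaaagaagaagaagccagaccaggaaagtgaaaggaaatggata
LINC01088 (chr4:78971498-78971797, plus strand): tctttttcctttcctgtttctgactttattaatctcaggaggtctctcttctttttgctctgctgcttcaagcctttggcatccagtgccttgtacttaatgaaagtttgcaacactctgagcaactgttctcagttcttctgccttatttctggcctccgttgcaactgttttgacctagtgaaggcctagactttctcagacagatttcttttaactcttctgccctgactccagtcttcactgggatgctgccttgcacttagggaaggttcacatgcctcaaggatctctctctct
LINC00312 (chr3:8571532-8571831, plus strand): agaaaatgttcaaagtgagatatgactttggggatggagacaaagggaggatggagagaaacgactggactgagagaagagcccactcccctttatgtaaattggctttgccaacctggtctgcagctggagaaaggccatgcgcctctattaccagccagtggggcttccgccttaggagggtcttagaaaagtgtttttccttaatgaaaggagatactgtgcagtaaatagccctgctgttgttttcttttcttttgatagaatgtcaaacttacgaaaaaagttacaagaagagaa

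The motifs searched, on both strands, were AP-1 (TGANTCA), TEAD (GGAATG), the antioxidant response element core (TGACNNNGC), SP1 (GGGCGG) and the TATA box (TATAAA). LINC00346 held 2 AP-1 matches and 2 antioxidant response element matches, and an AP-1 match overlaps an antioxidant response element match. SLCO4A1-AS1 held 2 antioxidant response element matches and LINC01085 held 1. The windows of LINC01088 and LINC00312 held none of the 5 sequences. Among 35116 promoter windows of the same length, 7.71% held AP-1, 14.0% TEAD, 13.3% the antioxidant response element core, 45.0% SP1 and 11.5% the TATA box. A match is a string of letters and not a shown binding site. Only 276 of the 360 members (76.7%) had a window, so a comparison of motif shares over the set is void. APCDD1L-AS1, LINC01057, PRKCQ-AS1, RHOXF1-AS1 and SYNPR-AS1 had none.

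SLCO4A1-AS1, antisense to the organic anion transporter gene SLCO4A1, rose in both clones. It had 4.95, 4.52 and 4.70 CPM in shGLO1#1 and 11.4, 8.07 and 6.31 CPM in shGLO1#2, against 0.979, 1.35 and 1.35 CPM in shNT. No clone library overlapped shNT, and every shGLO1#2 library lay above every shGLO1#1 library. The log2 fold change was 1.86 in shGLO1#1 (standard error 0.25, adjusted p = 5.46e-05) and 2.77 in shGLO1#2 (standard error 0.24, adjusted p = 1.28e-06). SLCO4A1, which shares exon sequence with it on the other strand, rose by 2.38 in shGLO1#1 and 2.60 in shGLO1#2 on the log2 scale (adjusted p = 7.98e-07 and 5.26e-07).

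APCDD1L-AS1 starts divergently from APCDD1L, a relative of the Wnt inhibitor gene APCDD1. It had 5.02, 6.53 and 6.21 CPM in shGLO1#1 and 8.30, 7.79 and 6.86 CPM in shGLO1#2, against 0.522, 2.12 and 1.57 CPM in shNT, with no overlap of either clone with shNT. The log2 fold change was 1.99 in shGLO1#1 (standard error 0.28, adjusted p = 7.58e-05) and 2.41 in shGLO1#2 (standard error 0.28, adjusted p = 1.48e-05). APCDD1L rose alongside, by 1.91 and 1.93 on the log2 scale in shGLO1#1 and shGLO1#2 (adjusted p = 2.42e-07 and 3.53e-07).

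PRKCQ-AS1, divergent from the protein kinase C theta gene, had 2.06, 1.73 and 1.68 CPM in shGLO1#1 and 1.70, 1.78 and 1.65 CPM in shGLO1#2, against 0.261, 0.257 and 0.433 CPM in shNT. The 3 shNT values stood well below the 6 clone values, which overlapped each other. PRKCQ-AS1 rose by 2.39 in shGLO1#1 (standard error 0.29, adjusted p = 2.06e-05) and by 2.36 in shGLO1#2 (standard error 0.30, adjusted p = 3.09e-05). PRKCQ itself averaged 0.178 CPM over the 9 libraries and was not tested. RHOXF1-AS1, on the X chromosome, had 2.25, 2.12 and 2.84 CPM in shGLO1#1 and 1.27, 1.11 and 1.53 CPM in shGLO1#2, against 0.849, 0.386 and 0.378 CPM in shNT. The 3 groups did not overlap, and its log2 fold changes were 2.1 (adjusted p = 0.000108) and 1.27 (adjusted p = 0.0100). RHOXF1 had no count in any library.

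LINC01085 had 5.02, 6.53 and 7.95 CPM in shGLO1#1 and 6.06, 4.06 and 5.08 CPM in shGLO1#2, against 1.89, 2.31 and 2.22 CPM in shNT, and neither clone overlapped shNT. LINC01085 rose by 1.53 in shGLO1#1 (standard error 0.22, adjusted p = 7.50e-05) and by 1.21 in shGLO1#2 (standard error 0.22, adjusted p = 0.000732). LINC00346, named PRECSIT in RefSeq, had 2.12, 2.51 and 1.74 CPM in shGLO1#1 and 4.48, 3.06 and 2.45 CPM in shGLO1#2, against 1.11, 1.09 and 0.703 CPM in shNT. LINC00346 rose by 1.77 in shGLO1#2 (adjusted p = 0.000253) and by 1.08 in shGLO1#1 (adjusted p = 0.0106). The shGLO1#1 call ended without shNT replicate 3 (0.88) or without shGLO1#1 replicate 2 (0.93).

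LINC01088 was lower by the widest margin of the members called in both clones. It had 3.92, 1.17 and 3.13 CPM in shGLO1#1 and 2.61, 1.17 and 1.29 CPM in shGLO1#2, against 31.1, 21.3 and 24.8 CPM in shNT. Every clone library was well below every shNT library. The log2 fold change was -3.32 in shGLO1#1 (standard error 0.29, adjusted p = 1.01e-06) and -3.96 in shGLO1#2 (standard error 0.31, adjusted p = 6.20e-07). In the annotation its gene overlaps NAA11, an N-acetyltransferase gene that averaged 0.00714 CPM. SYNPR-AS1, within the synaptoporin gene, had 1.48, 2.12 and 1.39 CPM in shGLO1#1 and 1.70, 1.06 and 2.14 CPM in shGLO1#2, against 13.2, 9.39 and 10.3 CPM in shNT. The log2 fold changes of SYNPR-AS1 were -2.78 in shGLO1#1 (standard error 0.23, adjusted p = 6.60e-07) and -2.77 in shGLO1#2 (standard error 0.23, adjusted p = 1.00e-06). SYNPR averaged 0.0264 CPM and was not tested.

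LINC01057, named SLC44A3-AS1 in RefSeq, had 25.3, 20.2 and 22.9 CPM in shGLO1#1 and 24.3, 25.3 and 23.0 CPM in shGLO1#2, against 62.4, 58.5 and 52.0 CPM in shNT. The clones overlapped each other and lay below shNT, with log2 fold changes of -1.41 (standard error 0.09, adjusted p = 9.23e-08) and -1.27 (standard error 0.09, adjusted p = 3.01e-07). Its neighbour SLC44A3 had log2 fold changes of -0.24 in shGLO1#1 (adjusted p = 0.497) and -0.45 in shGLO1#2 (adjusted p = 0.235). LINC00312, which overlaps LMCD1, had 1.09, 0.725 and 1.39 CPM in shGLO1#1 and 0.788, 1.00 and 1.35 CPM in shGLO1#2, against 2.02, 1.54 and 2.87 CPM in shNT. The log2 changes of LINC00312 were -1.09 (adjusted p = 0.0110) and -1.07 (adjusted p = 0.0146), and LMCD1 itself had -0.61 (adjusted p = 0.000931) and -0.84 (adjusted p = 0.000107). Both calls of LINC00312 ended without shNT replicate 3 (-0.80 in shGLO1#1 and -0.78 in shGLO1#2). The shGLO1#1 call ended without shGLO1#1 replicate 2 (-0.87) and the shGLO1#2 call without shGLO1#2 replicate 1 (-0.90).

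**Figure D3:**
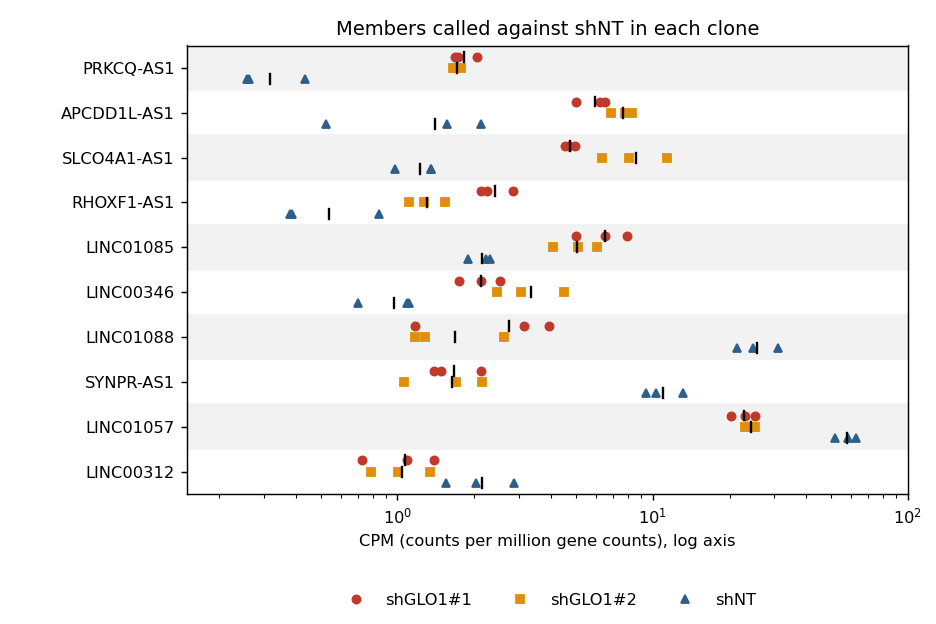
CPM per library (log axis) of the 10 members called in both clones against shNT, with shGLO1#1 above shGLO1#2 above shNT for each gene. Points are libraries and bars are means of 3; the shNT libraries lie to the left of both clones for the first 6 genes and to the right for the last 4.

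UCA1 and CCAT1, lncRNAs raised in several carcinomas, were placed in the set with their low level in shGLO1#1 known, so their values are a description. UCA1 had 3.47, 2.73 and 2.90 CPM in shGLO1#1 and 54.7, 40.0 and 56.6 CPM in shGLO1#2, against 50.5, 64.5 and 73.0 CPM in shNT. The shGLO1#1 libraries stood apart, and those of shGLO1#2 and shNT overlapped. The fitted log2 change was -4.45 (standard error 0.19) in shGLO1#1 and 4.11 (standard error 0.19) in shGLO1#2 against shGLO1#1. CCAT1 had 0.193, 0.223 and 0.348 CPM in shGLO1#1, 3 to 6 counts a library, and 5.64, 4.06 and 5.20 CPM in shGLO1#2, against 6.40, 6.24 and 5.95 CPM in shNT. The shGLO1#2 libraries lay just below those of shNT and far above those of shGLO1#1. The fitted log2 change was -4.62 (standard error 0.26) in shGLO1#1 and 4.28 (standard error 0.27) in shGLO1#2 against shGLO1#1. LINC-ROR, known from reprogramming of fibroblasts to pluripotent cells, had 0.193, 0.0558 and 0.0580 CPM in shGLO1#1 and 1.76, 0.946 and 1.35 CPM in shGLO1#2, against 1.24, 0.900 and 1.24 CPM in shNT. It reached the limit of the set through shGLO1#2 and shNT only.

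Other members were called in shGLO1#1 against shNT and between the clones, but not in shGLO1#2 against shNT. Of the 328 members, 16 met these criteria, UCA1 and CCAT1 included. The share of all genes that met them was not computed, so this count is a description. LINC01605 rose in shGLO1#1 to 6.04, 7.09 and 6.90 CPM, with 1.64, 2.11 and 1.65 CPM in shGLO1#2, against 0.326, 1.35 and 1.14 CPM in shNT. Its 3 groups did not overlap. The log2 fold change was 2.74 in shGLO1#1 (standard error 0.28, adjusted p = 4.19e-06) and 0.90 in shGLO1#2 (adjusted p = 0.0465), and -1.83 in shGLO1#2 against shGLO1#1 (standard error 0.25, adjusted p = 5.04e-05). Without shNT replicate 2, LINC01605 was also called in shGLO1#2 (1.21). Its nearest tested gene, ZNF703, had log2 fold changes of 1.29 in shGLO1#1 (adjusted p = 5.56e-06) and 0.60 in shGLO1#2 (adjusted p = 0.00413).

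LINC00639 had 2.51, 2.23 and 2.61 CPM in shGLO1#1 and 0.303, 0.390 and 1.29 CPM in shGLO1#2, against 0.588, 1.03 and 0.649 CPM in shNT. It rose in shGLO1#1 (1.62, standard error 0.37), and the shGLO1#2 and shNT libraries overlapped. LINC00639 entered the set through its level in shGLO1#1 alone, so this rise is a description without a p-value. Its log2 fold change between the clones was -1.85, and -2.74 without shGLO1#2 replicate 3, its highest library in that clone. FUT8-AS1, which overlaps exons of the fucosyltransferase gene FUT8, rose by 1.57 in shGLO1#1 (standard error 0.25, adjusted p = 0.000197) and had 0.14 in shGLO1#2 (adjusted p = 0.755). FUT8 itself rose by 0.94 in shGLO1#1 (adjusted p = 3.12e-08) and had -0.10 in shGLO1#2. PCBP1-AS1 rose by 1.21 (standard error 0.25, adjusted p = 0.00141) and TMEM9B-AS1 by 1.17 (standard error 0.32) in shGLO1#1, and in shGLO1#2 they had 0.10 and -0.36. The mean of TMEM9B-AS1 reached 1 CPM in shGLO1#1 only, so no p-value is given for it. The TMEM9B-AS1 call ended without shNT replicate 3 (0.96), and the PCBP1-AS1 call between the clones (-1.11) without shGLO1#1 replicate 2 (-0.93).

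The other named members of this kind were lower in shGLO1#1. LINC01111 had 0.836, 0.837 and 1.04 CPM in shGLO1#1 and 3.88, 5.12 and 4.16 CPM in shGLO1#2, against 2.48, 3.41 and 2.60 CPM in shNT. The shGLO1#1 libraries were lowest and the shGLO1#2 libraries highest, with no overlap. The log2 change of LINC01111 was -1.70 in shGLO1#1 (standard error 0.24, adjusted p = 6.42e-05) and 0.62 in shGLO1#2 (standard error 0.19, adjusted p = 0.0185). LINC01322 fell to 1.09, 1.84 and 1.62 CPM in shGLO1#1 and had 5.03, 5.51 and 5.82 CPM in shGLO1#2, against 5.55, 3.34 and 5.03 CPM in shNT. The log2 changes of LINC01322 were -1.67 (standard error 0.24, adjusted p = 7.58e-05) and 0.21 (adjusted p = 0.449). LYPLAL1-AS1 fell to 0.707, 1.12 and 0.986 CPM in shGLO1#1 and had 2.48, 2.50 and 3.06 CPM in shGLO1#2, against 2.35, 3.28 and 2.22 CPM in shNT, with log2 fold changes of -1.53 (standard error 0.25, adjusted p = 0.000263) and 0.02 (adjusted p = 0.949).

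In shGLO1#2, 11 of the 328 members were called against shNT and between the clones but not in shGLO1#1 against shNT. Here too the share of all genes was not computed. LINC00632, from which the circular RNA CDR1-AS is made, had 0.0643, 0.167 and 0.0580 CPM in shGLO1#1 and 4.91, 1.73 and 2.88 CPM in shGLO1#2, against no count in 2 shNT libraries and 0.108 CPM in the other. It was near the detection limit outside shGLO1#2. The summed counts were 5 in shGLO1#1 and 159 in shGLO1#2, against 2 in shNT. The ratio of depth-scaled counts was 77.2 for shGLO1#2 against shNT (exact 95% interval 21.0 to 643) and 2.43 for shGLO1#1 against shNT (0.398 to 25.6), intervals that cover counting error only. Both shNT counts came from shNT replicate 3. Between the clones the log2 fold change was 4.94 (standard error 0.59). LINC00632 reached 1 CPM in shGLO1#2 only, so no p-value is given for it.

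LINC01296 showed graded levels, with 20.4, 17.3 and 17.5 CPM in shGLO1#1 and 46.8, 37.1 and 41.9 CPM in shGLO1#2, against 9.86, 9 and 8.98 CPM in shNT. The 3 groups did not overlap. LINC01296 rose by 0.92 in shGLO1#1 (standard error 0.11, adjusted p = 2.14e-05), just under the fold limit, and by 2.16 in shGLO1#2 (standard error 0.11, adjusted p = 1.73e-08). LINC01296 has close copies in the genome, so its reads may have been split with them. LINC00654 had 1.35, 1.23 and 0.406 CPM in shGLO1#1 and 5.39, 3.12 and 3.73 CPM in shGLO1#2, against 0.457, 0.579 and 0.378 CPM in shNT. The log2 change of LINC00654 was 3.08 in shGLO1#2 (standard error 0.37) and 1.00 in shGLO1#1 (standard error 0.47). In shGLO1#1 it was called without shGLO1#1 replicate 3 (1.37). The mean of LINC00654 reached 1 CPM in shGLO1#2 only, so no p-value is given for it.

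FLG-AS1, at the filaggrin locus, had 4.82, 2.06 and 2.73 CPM in shGLO1#1 and 13.9, 12.0 and 11.0 CPM in shGLO1#2, against 1.57, 3.99 and 2.87 CPM in shNT. shGLO1#2 stood apart, and the others overlapped. The log2 fold changes of FLG-AS1 were 0.10 in shGLO1#1 (adjusted p = 0.827) and 2.11 in shGLO1#2 (standard error 0.28, adjusted p = 4.27e-05), while FLG itself had -0.25 and -0.02. LINC00601 rose to 3.88, 2.39 and 3.06 CPM in shGLO1#2 and had 2.06, 1.39 and 1.28 CPM in shGLO1#1, against 1.18, 1.03 and 0.919 CPM in shNT (1.55 in shGLO1#2, standard error 0.26, adjusted p = 0.000356, and 0.52 in shGLO1#1, adjusted p = 0.160). Its call between the clones (1.04) ended without shGLO1#1 replicate 2 (0.96), shGLO1#1 replicate 3 (0.91) or shGLO1#2 replicate 1 (0.85), and with library totals alone (0.98).

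The members lower in shGLO1#2 were led by LINC00842. It had 3.92, 6.92 and 8.06 CPM in shGLO1#1 and 1.82, 1.95 and 2.82 CPM in shGLO1#2, against 8.29, 7.71 and 9.46 CPM in shNT. LINC00842 had a log2 change of -1.98 in shGLO1#2 (standard error 0.26, adjusted p = 3.87e-05) and -0.49 in shGLO1#1 (adjusted p = 0.0840). The nearest gene ANXA8L1, an annexin with near-identical copies, had log2 fold changes of -1.33 in shGLO1#1 and -2.41 in shGLO1#2 (adjusted p = 0.00148 and 4.99e-05). LINC01561 fell to 0.424, 0.723 and 0.490 CPM in shGLO1#2 and had 1.54, 1.79 and 1.74 CPM in shGLO1#1, against 1.5, 1.29 and 1.24 CPM in shNT. It had log2 fold changes of -1.29 in shGLO1#2 (standard error 0.29, adjusted p = 0.00261) and 0.27 in shGLO1#1 (adjusted p = 0.374), and its nearest gene PPAPDC1A had -1.26 (adjusted p = 5.27e-07) and 0.18 (adjusted p = 0.129). GATA6-AS1, named for the transcription factor gene GATA6 on the other strand, fell by 1.42 in shGLO1#2 (adjusted p = 0.0104), and this call ended without shNT replicate 1 (-1.02, adjusted p = 0.0573). GATA6 itself had -0.38 in shGLO1#2 (adjusted p = 0.00119).

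**Figure D4:**
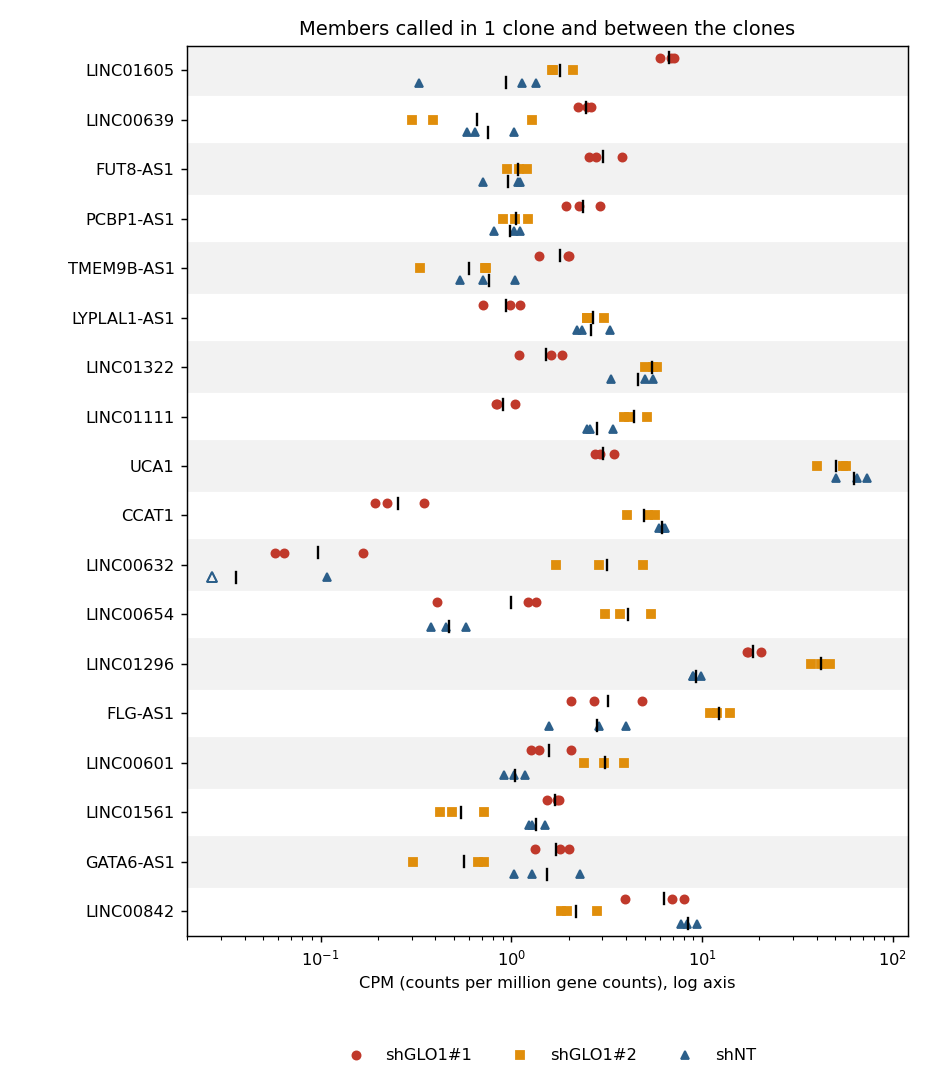
CPM per library (log axis) of 18 members, with shGLO1#1 above shGLO1#2 above shNT for each gene. They were named for a call in 1 clone against shNT and between the clones, and include UCA1 and CCAT1. HAS2-AS1, LINC01279 and LINC-ROR, also called in this way but named for other reasons, are not drawn. Points are libraries, bars are means of 3, and the open triangle marks the 2 shNT libraries with no LINC00632 count; in the first 10 genes shGLO1#1 stands apart from shNT and in the last 8 shGLO1#2 does.

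The antisense members were set beside the genes on the other strand that their symbols name. Of 223 antisense members, 197 had a partner with enough counts. In GENCODE 29, 133 of these pairs overlapped in exons, 35 had divergent starts within 5 kb of each other, 23 overlapped outside shared exons and 6 could not be placed. Annotations differ here, since in RefSeq 21 of the 133 members, GATA6-AS1 and WAC-AS1 among them, do not overlap their nearest gene. As a description over pairs, which share the same libraries and are not independent replicates, the log2 fold changes of member and partner had a Pearson r of 0.35 (Spearman rho 0.30) in shGLO1#1 and 0.41 (0.29) in shGLO1#2, and 0.29 (0.29) between the clones. For the 35 divergent pairs r was 0.75 (0.60) and 0.71 (0.52), and 0.38 (0.40) between the clones, where no divergent member was called. Without APCDD1L-AS1, the pair whose partner changed most, it was 0.60 (0.56) and 0.40 (0.47) over 34 pairs. For the 133 exon-overlapping pairs, whose reads cannot be separated by strand, r was 0.27 (0.21) and 0.37 (0.25).

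In shGLO1#1, 14 of the 197 members were called and in 2 of these pairs the partner was called in the same direction, while 6.09% of the 197 partners were called. In shGLO1#2, 9 were called and 4 had a partner called alike, with 4.57% of the partners called. Between the clones, 18 were called and 1 had a partner called alike, with 2.03% of the partners called. No pair was called in opposite directions in any comparison. Beside SLCO4A1-AS1 and APCDD1L-AS1, the pairs called alike in shGLO1#2 were those of HAS2-AS1 and ITGB2-AS1. HAS2-AS1, antisense to the hyaluronan synthase gene HAS2, had 1.22, 1.39 and 1.39 CPM in shGLO1#1 and 3.21, 3.17 and 2.76 CPM in shGLO1#2, against 0.718, 1.03 and 1.35 CPM in shNT. It rose in shGLO1#2 (1.51, standard error 0.23, adjusted p = 0.000168) and had 0.28 in shGLO1#1 (adjusted p = 0.406), while HAS2 rose by 2.47 in shGLO1#2 and 1.48 in shGLO1#1 (adjusted p = 2.61e-07 and 2.06e-05). ITGB2-AS1, antisense to the leukocyte integrin beta chain gene ITGB2, had 1.35, 1.45 and 3.36 CPM in shGLO1#1 and 0.727, 1.17 and 2.39 CPM in shGLO1#2, against 2.81, 2.83 and 4.11 CPM in shNT. ITGB2-AS1 had a log2 change of -1.22 in shGLO1#2 (adjusted p = 0.0271) and -0.73 in shGLO1#1 (adjusted p = 0.129), beside -1.32 and -1.84 for ITGB2. The ITGB2-AS1 call in shGLO1#2 ended without shNT replicate 3 (-1), shGLO1#2 replicate 1 (-0.91) or shGLO1#2 replicate 2 (-1.08, adjusted p = 0.0937), and it was called in shGLO1#1 without shGLO1#1 replicate 3 (-1.30).

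Some members did not move with their partner. MMP24-AS1, which RefSeq annotates as the protein-coding MMP24OS, had log2 fold changes of 0.31 in shGLO1#1 (adjusted p = 0.00589) and 0.07 in shGLO1#2 (adjusted p = 0.499), while the metalloproteinase gene MMP24 fell by 1.52 and 1.89. VIM-AS1 was called between the clones only. Its log2 fold change was -1.17 in shGLO1#2 against shGLO1#1 (adjusted p = 6.24e-06), while that of vimentin (VIM), which it overlaps, was 0.39 (adjusted p = 0.000304). VIM-AS1 was chosen after its values had been seen.

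**Figure D5:**
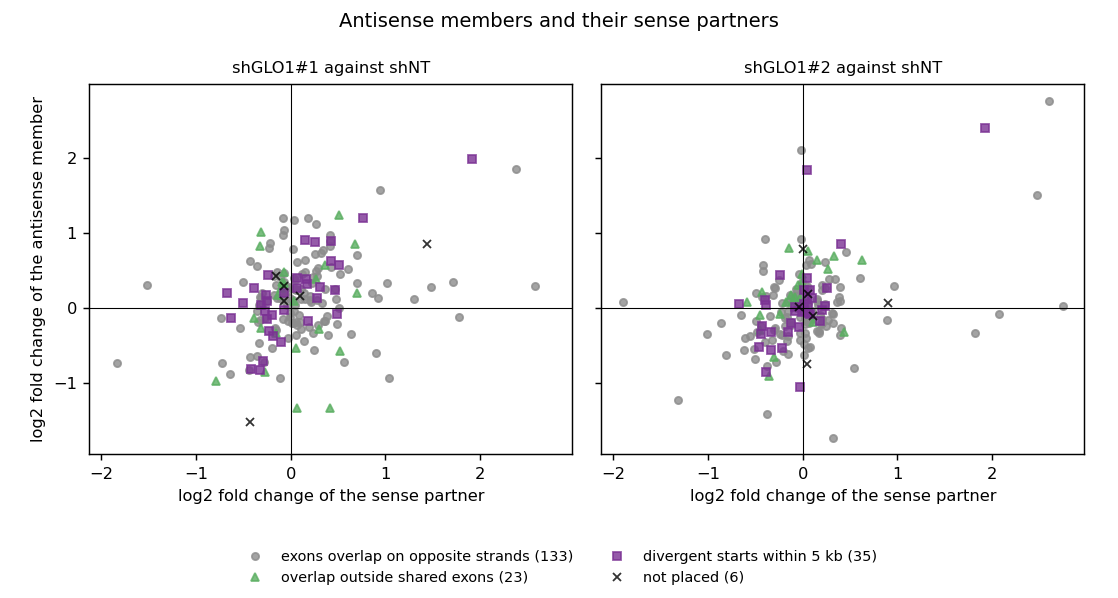
log2 fold change of 197 antisense members (y axis) against that of the sense partner (x axis) in each clone against shNT, with symbols by the position of the pair. The divergent pairs have a Pearson r of 0.75 in shGLO1#1 and 0.71 in shGLO1#2, and APCDD1L-AS1 is the square at the upper right of each panel.

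Hosts of snoRNAs are spliced transcripts whose introns carry the snoRNAs and whose levels follow translation and decay as well as transcription. Of 19 listed host genes 18 were tested, 3 of them members, and none passed the fold limit in any comparison. With no fold limit, 11 of the 18 were lower and 1 higher in shGLO1#1, beside 23.1% of all genes lower and 22.6% higher. In shGLO1#2, 3 of the 18 were lower and 1 higher, beside 19.8% and 18.3% of all genes. The median log2 fold change of the list was -0.34 in shGLO1#1 and -0.11 in shGLO1#2, beside 0.00 for all genes. GAS5 had 136, 128 and 122 CPM in shGLO1#1 and 188, 189 and 188 CPM in shGLO1#2, against 186, 181 and 185 CPM in shNT. Every shGLO1#1 library was below all others. GAS5 fell by 0.59 in shGLO1#1 (standard error 0.05, adjusted p = 6.70e-07) and had 0.01 in shGLO1#2 (adjusted p = 0.880), and the clones differed by 0.60 (adjusted p = 5.49e-07).

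SNHG1 had 101, 102 and 119 CPM in shGLO1#1 and 99.8, 130 and 138 CPM in shGLO1#2, against 122, 145 and 155 CPM in shNT. It fell by 0.46 in shGLO1#1 (adjusted p = 0.00522) and had -0.22 in shGLO1#2 (adjusted p = 0.154), where its libraries overlapped shNT. EPB41L4A-AS1, the other member in the host list, had 0.12 and -0.33 (adjusted p = 0.545 and 0.117). LRRC75A-AS1 and LINC00888, named SNHG29 and SNHG33 in RefSeq, are members outside that list. With 1 library left out at a time, LRRC75A-AS1 had -0.26 to -0.17 in shGLO1#1 and -0.12 to -0.02 in shGLO1#2. Outside the members, ZFAS1 fell by 0.80 in shGLO1#1 (72.8, 73.4 and 75.9 CPM, against 124, 119 and 126 CPM in shNT, adjusted p = 1.35e-07) and by 0.24 in shGLO1#2 (adjusted p = 0.00309). The exception was SNHG20, higher in shGLO1#1 (0.46, adjusted p = 0.0133).

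Of the proteins that build paraspeckles around NEAT1, none was called in any comparison. NONO fell by 0.58 in shGLO1#2 (adjusted p = 1.00e-06), and SFPQ and PSPC1 rose by 0.28 and 0.48 in the same clone (adjusted p = 0.00167 and 0.000186). In shGLO1#1, NEAT1 was the only one of 7 genes in this list to pass without a fold limit.

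Of 23 carcinoma-associated lncRNAs listed, 17 were tested and 8 were members. Beside UCA1, CCAT1 and LINC-ROR, the member LINC00673 rose by 0.43 in shGLO1#1 and in shGLO1#2 (adjusted p = 0.00532 and 0.00713), and LINC01116 by 0.24 in shGLO1#1 (adjusted p = 0.0455). LINC00152 (CYTOR), which may share reads with a near-identical copy, had 0.04 and 0.20 (adjusted p = 0.760 and 0.114). One listed gene outside the members was called against shNT, MIR100HG, the host of let-7a-2, miR-100 and miR-125b-1, in both clones (1.13 and 1.12, adjusted p = 7.22e-06 and 9.95e-06). None of 15 HOX antisense RNAs listed had enough counts to be tested. Of 10 imprinted genes listed 3 were tested, and PEG10 fell by 1.63 in shGLO1#1 (adjusted p = 2.25e-09) and by 0.65 in shGLO1#2 (adjusted p = 2.91e-06). MEST fell by 0.35 in shGLO1#1 (adjusted p = 0.0104) and rose by 0.67 in shGLO1#2 (adjusted p = 7.91e-05), and was called between the clones (1.02, adjusted p = 1.86e-06).

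In RefSeq, 15 members are annotated as protein-coding. In 4 of them the symbol has been merged into a gene that the tables list as well (HNRNPU-AS1, LINC00341, LINC01279 and TNRC6C-AS1). The other 11 are annotated with a protein of their own: LINC00094, LINC00116, LINC00176, LINC00493, LINC00672, LINC00998, LINC01207, LINC01420, MMP24-AS1, NCBP2-AS2 and TOPORS-AS1. LINC01420, which encodes the decapping-associated microprotein NBDY, had 34.7, 34.7 and 32.1 CPM in shGLO1#1 and 20.5, 19 and 19.1 CPM in shGLO1#2, against 17.0, 17.3 and 16.5 CPM in shNT. The 3 groups did not overlap. It rose by 0.92 in shGLO1#1 (standard error 0.08, adjusted p = 6.45e-07) and had 0.18 in shGLO1#2 (adjusted p = 0.0877), under the fold limit in both. LINC00998 (SMIM30) had 47.1, 49.1 and 43.9 CPM in shGLO1#1 and 29.9, 34.3 and 29.3 CPM in shGLO1#2, against 43.2, 42.2 and 42.0 CPM in shNT, and fell by 0.47 in shGLO1#2 (standard error 0.08, adjusted p = 0.000263).

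LINC01207 (SMIM31) had 0.19 in shGLO1#1 (adjusted p = 0.537) and 1.00 in shGLO1#2 (standard error 0.22, adjusted p = 0.00299), a value just under the limit. It passed the limit in 8 of 16 alternatives, with values of 1.00 to 1.15. Among them were DESeq2 (1.00), the replicate block (1.01), and leaving out shNT replicate 1 (1.06), shNT replicate 3 (1.15) or shGLO1#2 replicate 2 (1.06). LINC01279, part of CCDC80 in RefSeq, was the 1 protein-coding member called against shNT. It had 3.15, 3.24 and 2.32 CPM in shGLO1#1 and 0.727, 1.11 and 0.306 CPM in shGLO1#2, against 0.979, 1.35 and 1.62 CPM in shNT. The log2 change of LINC01279 was 1.05 in shGLO1#1 (adjusted p = 0.0105) and -0.89 in shGLO1#2 (adjusted p = 0.0746). The shGLO1#1 call ended without shNT replicate 1 (0.88), shGLO1#1 replicate 1 (1.00) or shGLO1#1 replicate 2 (0.96), and without shGLO1#2 replicate 2 it was called lower in shGLO1#2 (-1.36). TNRC6C-AS1, merged into TMC6, had -0.93 in shGLO1#1 (adjusted p = 0.00169) and -0.08 in shGLO1#2, and it was called in shGLO1#1 without shNT replicate 3 (-1.09) or shGLO1#1 replicate 2 (-1.06).

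The 32 members with a mean below 1 CPM are described without p-values, since most entered through 1 condition. MATN1-AS1 had 1.35, 0.948 and 0.986 CPM in shGLO1#1 and 0.606, 0.612 and 0.980 CPM in shGLO1#2, against 0.131, 0.257 and 0.270 CPM in shNT. LINC00458 had 0.129, 0.335 and 0.116 CPM in shGLO1#1 and 0.182, 0.501 and 0.245 CPM in shGLO1#2, against 1.24, 1.48 and 0.865 CPM in shNT. LINC01179 had 0.0643, 0.558 and 0.290 CPM in shGLO1#1 and 0.364, 0.779 and 0.612 CPM in shGLO1#2, against 1.89, 1.86 and 1.73 CPM in shNT. In these 3 genes neither clone overlapped shNT, and they were chosen for that after their values were seen. SLC7A11-AS1, antisense to the cystine transporter gene SLC7A11, had 0.836, 0.502 and 0.580 CPM in shGLO1#1 and 0.242, 0.445 and 0.306 CPM in shGLO1#2, against 0.849, 1.03 and 1.41 CPM in shNT.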

How the data were processed

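Counts were measured by RNA-seq in 9 libraries of MDA-MB-231 cells, 3 each of shGLO1#1, shGLO1#2 and shNT. The authors made libraries with an Illumina TruSeq RNA kit. Per the labels, bcl2fastq 2.17, TopHat2 2.1.1 and HTSeq were used with build hg19. The deposited values are raw counts per gene symbol. For HTSeq, the annotation, version and strand setting were not given in the sources used here. Rows that name no gene (12.8 to 15.2% of alignments on no gene, 1.5 to 1.95% ambiguous and 5.76 to 6.15% not unique) were left out. Libraries of 1 condition differed by more than sampling noise (chi-square over degrees of freedom of 2.98 to 8.14).

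Counts were analysed with edgeR 4.0.16 in R 4.3.3: filterByExpr (minimum count 10, minimum total 15), TMM, and quasi-likelihood tests in 1 model of all 9 libraries, adjusted by Benjamini and Hochberg over 13704 genes. The standard error is the absolute log2 fold change over the square root of F. The steps were tested on simulated data. CPM is the count over the gene total, without TMM. Alternatives were DESeq2 1.42.0, other scalings, filters and member rules, a replicate block and leaving out each library.

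Deviations from the condition means correlated between equally numbered libraries of shGLO1#2 and shNT (r 0.322, 0.242 and 0.415), so the numbers pair these libraries by the data. For shGLO1#1 and shNT (-0.009, 0.094 and 0.329) and for the clones (0.225, 0.063 and 0.440) they did not reach 0.1 in every pair.

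Members and lists were chosen with earlier results of these data known. Named members were: those spelt out in the rule; with a mean of at least 1 CPM, up to 8 higher and 8 lower called in both clones, and up to 5 higher and 5 lower in each clone called there and between the clones; the 10 with the highest CPM; those annotated as protein-coding; up to 6 antisense members called with their partner; the 3 on each side of the limit; and members of 5 lists. Other genes are said to be chosen after their values were seen, or stand beside a member as partner or neighbour. Sequences and names come from RefSeq (GRCh38.p14) and positions of pairs from GENCODE 29.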

Additional observations from a re-analysis of the deposited data

Results flagged for a closer look

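The change against shNT differed between the clones for 18 named members, by edgeR's quasi-likelihood test of shGLO1#2 against shGLO1#1 (the log2 fold change over 1 and the adjusted p under 0.05). UCA1 and CCAT1 are left out, since their difference was known when they were chosen. LINC-ROR is left out as well, since its mean over the 9 libraries was below 1 CPM. Of the 18, 16 were named because they were called in 1 clone and between the clones, so for these the test restates how they were chosen. HAS2-AS1 was named for a call together with its partner, and LINC01279 because RefSeq annotates it as protein-coding. Both were also called in 1 clone and between the clones, so the list of 18 holds only members that passed. LINC00632, LINC00654, LINC00639 and TMEM9B-AS1 reached a mean of 1 CPM in 1 condition only, so their differences are a description. Of all genes tested, 7.09% were called between the clones.

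The following were higher in shGLO1#2 than in shGLO1#1, given as log2 fold changes. They were LINC00632 (4.94), LINC01111 (2.32), LINC00654 (2.09), FLG-AS1 (2.01), LINC01322 (1.87), LYPLAL1-AS1 (1.55), LINC01296 (1.24), HAS2-AS1 (1.23) and LINC00601 (1.04). The following were lower in shGLO1#2 than in shGLO1#1 on the same scale. They were LINC01279 (-1.94), LINC00639 (-1.85), LINC01605 (-1.83), LINC01561 (-1.56), TMEM9B-AS1 (-1.54), GATA6-AS1 (-1.53), LINC00842 (-1.48), FUT8-AS1 (-1.435) and PCBP1-AS1 (-1.11). Each condition is 1 clone, so differences between clones and between shRNAs cannot be told apart.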

How the results depend on the processing

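The number of members called was 24 in shGLO1#1 against shNT, 22 in shGLO1#2 against shNT and 22 between the clones once antisense symbols were left out, which removes 223 of the 360 members. Under all other alternatives it stayed within 1.5 times of 42, 36 and 41. Leaving out 1 library at a time gave 39 to 47, 33 to 43 and 41 to 51. The replicate block gave 42, 38 and 42, DESeq2 gave 40, 36 and 41, and library totals without TMM gave 44, 38 and 44. Among the named calls the block ended none. LINC01207 in shGLO1#2, just under the limit (1.00), passed it in 8 of 16 alternatives, the block (1.01) among them. Of 63 named calls, 54 kept their direction and their side of the limits in all alternatives. The remainder fell below a limit in 19 of 1006 alternatives and none reversed. The medians of members were 0.13 to 0.17, 0.00 to 0.01 and -0.14 to -0.11 when 1 library was left out, and in shGLO1#2 against shNT the median was just below 0 without shNT replicate 1 (-0.0043). Alternatives for these medians, for GLO1 and for the pair correlations were chosen after seeing the data. With 1 count worth 0.0541 to 0.0653 CPM, members near 1 CPM rest on few counts per library.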
